A study of Mus musculus with 20 samples.

Results

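Lipo3, Sec14l3, Pzp and Cntnap5a are 4 genes of the 19940 in a table of kidney RNA, and all 4 were among the 14630 genes that passed the filter on low values (a normalized read count of 10 or more in at least 5 libraries). They were chosen by their normalized counts at 47 weeks, at which kidneys of G3 Tert-/- mice hold less of them than those of Tert+/+ mice, so their genotype difference at 47 weeks is given as a description, with no test. The same holds for their differences with age and for the change of the genotype difference between ages, which use the same 47-week libraries. The genotype comparison at 7 weeks used none of the libraries that chose the genes, and it was tested.

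RNA from kidneys of male mice was sequenced at its 3′ ends in 20 libraries, each taken as 1 mouse, with 5 in each of 4 groups. The groups were Tert+/+ at 7 weeks, Tert-/- of generation 3 (G3) at 7 weeks, Tert+/+ at 47 weeks and G3 Tert-/- at 47 weeks, and the 7-week and 47-week mice are called young and old here. Tert is the catalytic subunit of telomerase, the enzyme that lengthens chromosome ends, which shorten over generations in mice that lack it. No treatment is named, and neither strain nor litter is stated in the labels. The deletion is inherited, so it is not limited to the kidney. Libraries held 7161690 to 9757594 reads. Tert itself was at 9.72 ± 4.24 in Tert+/+ young, 3.11 ± 2.07 in G3 Tert-/- young, 11.9 ± 4.37 in Tert+/+ old and 6.99 ± 1.65 in G3 Tert-/- old kidneys (normalized read count, mean ± SD, n = 5). Reads of a transcript's end say little about a deletion elsewhere in the gene. All 8 listed proximal tubule markers were in the table, with summed normalized counts from 42787 to 64357 per library, so the labelled tissue held its main cell type in every library. 2 libraries stood apart on the first principal component of all tested genes (22% of the variance): Tert+/+ young replicate 1 at 67.5 and Tert+/+ old replicate 4 at 56.6, against -39.4 to 21 in the other libraries. Replicates are numbered in the order in which they are listed, and nothing pairs mice of different groups.

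The 4 genes belong to different families. Lipo3 encodes a member of the acid lipase family, which includes lysosomal acid lipase (Lipa) and gastric lipase and cleaves fatty acids from glycerides and sterol esters. Sec14l3 encodes a SEC14-like protein, one of the carriers with a CRAL-TRIO fold that hold a lipid such as a phosphoinositide or tocopherol in a closed pocket, and is known from ciliated airway epithelium. Pzp, pregnancy zone protein, is a large plasma protease inhibitor of the alpha-2-macroglobulin family that the mouse liver secretes: a protease that cuts its bait region is trapped, and the complex is cleared through the receptor Lrp1. Cntnap5a encodes a contactin-associated protein of the neurexin superfamily, single-pass membrane proteins best known from the nervous system.

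In GENCODE M21 on GRCm38, the protein-coding gene Lipo3 spans chr19:33555160-33761951 on the minus strand and Sec14l3 spans chr11:4064841-4077736 on the plus strand. Pzp spans chr6:128483567-128526720 on the minus strand, and Cntnap5a spans chr1:115684756-116587323 on the plus strand. The 4 genes thus lie on 4 chromosomes. Promoters are shown because the 4 genes differed in the same direction at 47 weeks. The RefSeq table on GRCm38.p6 matched 3 of them, and Cntnap5a was not matched. Each runs from 250 bases before to 50 bases after the start, 5′ to 3′ on the gene's own strand, and capitals mark matches to the 4 motifs searched. The start that RefSeq gives for Lipo3 lies inside the GENCODE span printed above, downstream of its 5′ end, so the annotations differ there.

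Lipo3, chr19:33590262-33590561, minus strand: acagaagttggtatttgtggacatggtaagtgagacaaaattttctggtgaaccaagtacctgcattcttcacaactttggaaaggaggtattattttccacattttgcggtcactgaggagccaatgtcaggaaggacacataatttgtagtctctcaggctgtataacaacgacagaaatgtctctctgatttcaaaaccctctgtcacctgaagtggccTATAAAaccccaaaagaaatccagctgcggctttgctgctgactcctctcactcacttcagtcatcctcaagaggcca

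Sec14l3, chr11:4064603-4064902, plus strand: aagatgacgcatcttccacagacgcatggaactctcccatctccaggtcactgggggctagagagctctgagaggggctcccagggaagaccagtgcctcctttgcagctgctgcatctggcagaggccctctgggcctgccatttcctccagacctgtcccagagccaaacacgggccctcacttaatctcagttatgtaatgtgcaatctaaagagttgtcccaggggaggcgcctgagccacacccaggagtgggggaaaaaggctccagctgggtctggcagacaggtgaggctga

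Pzp, chr6:128526671-128526970, minus strand: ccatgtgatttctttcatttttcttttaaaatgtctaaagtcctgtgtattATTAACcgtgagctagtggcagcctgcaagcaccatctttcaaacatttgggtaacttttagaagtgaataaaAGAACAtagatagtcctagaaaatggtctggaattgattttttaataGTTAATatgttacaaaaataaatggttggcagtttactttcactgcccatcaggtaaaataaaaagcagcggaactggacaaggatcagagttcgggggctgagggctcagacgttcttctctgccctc

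The motifs, searched on both strands, were the TATA box TATAAA, the androgen receptor half-site AGAACA, the HNF1 half-site GTTAAT and the HNF4A core CAAAGTC. The Lipo3 promoter held the TATA box at bases 223 to 228. The Pzp promoter held the androgen receptor half-site at bases 125 to 130 and the HNF1 half-site at bases 172 to 177, with its reverse complement ATTAAC at bases 52 to 57. The Sec14l3 window held none of the 4. Among 27025 promoters of the same length in that table, 14.2% held the TATA box, 19% the androgen receptor half-site, 7.2% the HNF1 half-site and 4.36% the HNF4A core. No motif was shared by the 3 promoters, and a match here is only a match of letters.

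Lipo3 was highest in old Tert+/+ kidneys and lowest in old G3 Tert-/- kidneys. Its normalized counts in Tert+/+ young replicates 1 to 5 were 131, 126, 128, 138 and 146. In G3 Tert-/- young kidneys they were 145, 101, 101, 120 and 130. In Tert+/+ old kidneys they were 184, 152, 137, 180 and 179, and in G3 Tert-/- old kidneys 89.8, 74.7, 103, 84.8 and 56.6. Every old G3 Tert-/- library lay below every old Tert+/+ library, while the groups of 7 weeks overlapped. The means were 134 ± 7.90, 119 ± 19.2, 167 ± 20.9 and 81.7 ± 17.3 (SD, n = 5) in the same order. At 47 weeks the G3 Tert-/- mean was 2.04-fold lower (log2 fold change -1.04, SE 0.15, 95% interval -1.34 to -0.73). All log2 fold changes are of the normalized count plus 1. In whole tissue, fewer cells of a type and less RNA per cell cannot be told apart.

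With age, the Lipo3 log2 fold change of old over young was 0.31 (95% interval 0 to 0.61) in Tert+/+ kidneys, an interval that reaches 0. In G3 Tert-/- kidneys it was -0.55 (-0.86 to -0.25). Both values use the old libraries that chose the gene. The old and young libraries overlapped in both genotypes. The order of the means was Tert+/+ old, Tert+/+ young, G3 Tert-/- young, G3 Tert-/- old, and each of these neighbours overlapped. In Tert+/+ young kidneys the variance between mice was 0.499 times the variance of counting alone, so the spread of those 5 mice was within counting error. In the other groups it was 2.48 to 3.56 times the counting variance.

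Sec14l3 was lower in old G3 Tert-/- kidneys than in every other kidney of the study. Its normalized counts were 145, 125, 184, 150 and 74.0 in Tert+/+ young replicates 1 to 5, and 176, 88.1, 158, 148 and 168 in G3 Tert-/- young replicates. They were 126, 99.5, 98.3, 110 and 105 in Tert+/+ old kidneys and 32.7, 40.9, 53.0, 35.7 and 58.6 in G3 Tert-/- old kidneys. The highest old G3 Tert-/- library (58.6) was below the lowest of the other 15 (74.0, Tert+/+ young replicate 5). Means were 136 ± 40.3, 148 ± 35.0, 108 ± 11.4 and 44.2 ± 11.2 (SD, n = 5). The old G3 Tert-/- mean was 2.44-fold below the old Tert+/+ mean (log2 fold change -1.30, SE 0.22, 95% interval -1.75 to -0.85).

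Between 7 and 47 weeks the Sec14l3 mean of G3 Tert-/- kidneys was 3.34-fold lower, with no overlap (log2 fold change -1.71, 95% interval -2.16 to -1.26). In Tert+/+ kidneys the difference was -0.27 (-0.72 to 0.18), with overlap. The order of the means was G3 Tert-/- young, Tert+/+ young, Tert+/+ old, G3 Tert-/- old. The first 3 overlapped with their neighbours, and the step to old G3 Tert-/- did not. Young kidneys varied most: the variance between mice was 12.6 times the counting variance in Tert+/+ young and 8.78 times in G3 Tert-/- young, but 1.15 and 2.74 times in Tert+/+ old and G3 Tert-/- old.

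Pzp had the same order of groups as Lipo3. Its normalized counts were 339, 391, 470, 403 and 556 in Tert+/+ young replicates 1 to 5, and 448, 316, 378, 389 and 520 in G3 Tert-/- young replicates. They were 583, 620, 370, 449 and 584 in Tert+/+ old kidneys and 263, 316, 305, 174 and 292 in G3 Tert-/- old kidneys. At 47 weeks the genotypes did not overlap, with 316 as the highest G3 Tert-/- and 370 as the lowest Tert+/+ value. At 7 weeks they overlapped. Means were 432 ± 83.9, 410 ± 77.2, 521 ± 107 and 270 ± 57.5 (SD, n = 5). The old G3 Tert-/- mean was 1.93-fold below the old Tert+/+ mean (log2 fold change -0.95, SE 0.18, 95% interval -1.32 to -0.59).

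Old over young, the Pzp log2 fold change was 0.27 (95% interval -0.10 to 0.63) in Tert+/+ and -0.61 (-0.98 to -0.25) in G3 Tert-/- kidneys, with overlap in both. In order of their means, Tert+/+ old, Tert+/+ young, G3 Tert-/- young and G3 Tert-/- old each overlapped with the next. Mice of 1 group differed far beyond counting error, by 11.9 to 20.9 times the counting variance.

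Cntnap5a, the gene with the fewest reads of the 4, was close to 0 in old G3 Tert-/- kidneys. Its normalized counts were 13.8, 12.5, 13.7, 22.2 and 21 in Tert+/+ young replicates 1 to 5, and 9.08, 6.85, 4.71, 13.3 and 11.8 in G3 Tert-/- young replicates. They were 16.6, 11.8, 5.84, 21.4 and 13.4 in Tert+/+ old kidneys and 0, 1.02, 4.16, 1.02 and 3.03 in G3 Tert-/- old kidneys. All 5 old G3 Tert-/- values were below all other 15, though the closest of those was 4.71 (G3 Tert-/- young replicate 3). The value of 0 allows up to 3 reads, or 3.17 normalized counts, from counting error alone. Means were 16.6 ± 4.58, 9.14 ± 3.50, 13.8 ± 5.76 and 1.85 ± 1.70 (SD, n = 5).

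These Cntnap5a values rest on 90, 49, 65 and 9 reads over the 5 libraries of Tert+/+ young, G3 Tert-/- young, Tert+/+ old and G3 Tert-/- old. At 47 weeks the reads, scaled for library size, were 7.32-fold lower in G3 Tert-/- kidneys, with a 95% counting interval of 3.63 to 16.7 that leaves out differences between mice. The log2 fold change was -2.50 (SE 0.41, 95% interval -3.36 to -1.65). With a pseudocount of 5 in place of 1 it was -1.43, since the size of a low gene's log2 difference depends on the pseudocount. With age, the scaled reads of G3 Tert-/- kidneys were 4.97-fold lower (counting interval 2.41 to 11.5), a log2 fold change of -1.98, or -1.04 with a pseudocount of 5. In Tert+/+ kidneys the log2 difference with age was -0.32 (95% interval -1.18 to 0.54). The means fell in the order Tert+/+ young, Tert+/+ old, G3 Tert-/- young, G3 Tert-/- old, and of these steps the last alone had no overlap. The variance between mice was 1.35 to 2.26 times that of counting.

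**Figure D1:**
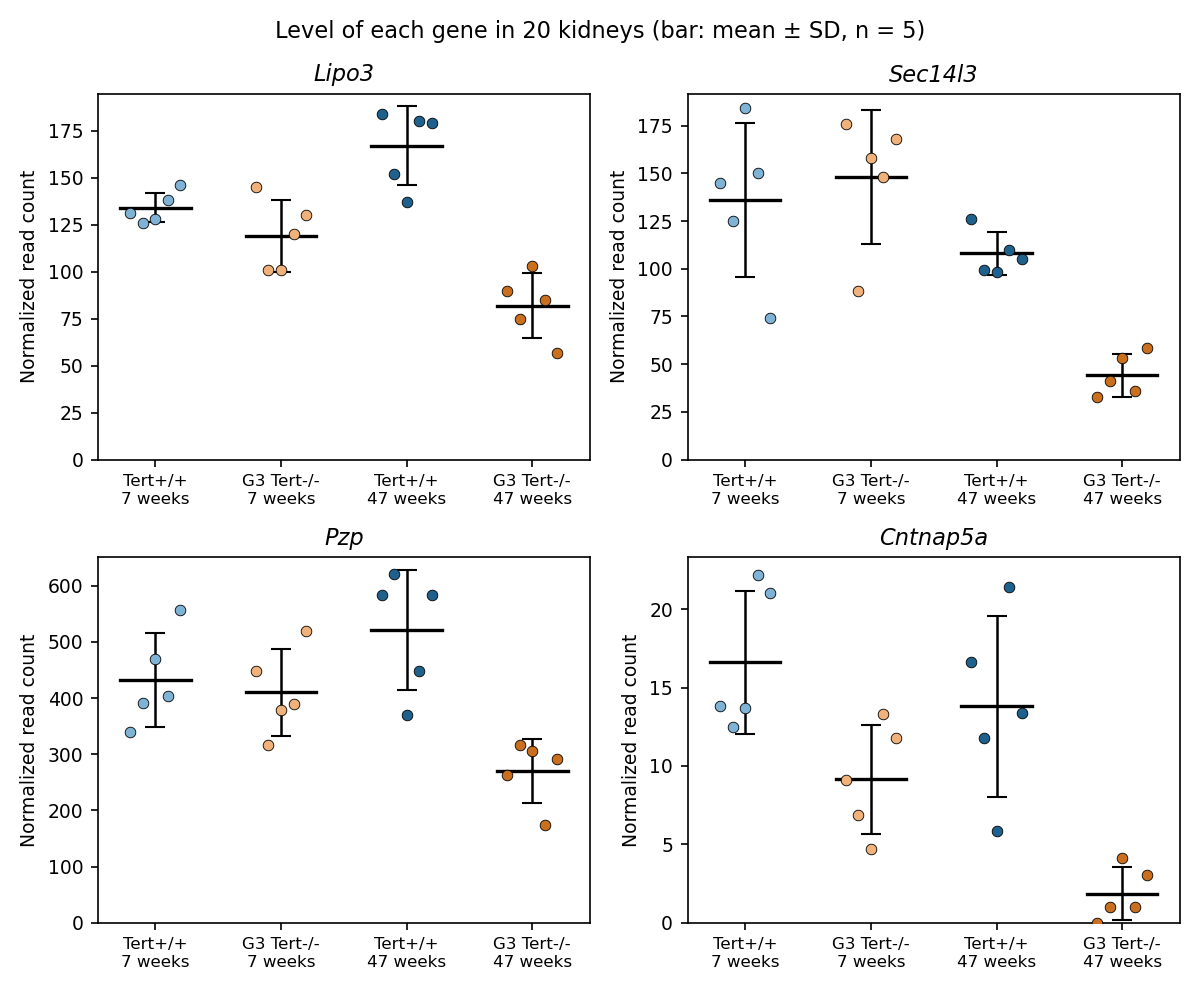
Normalized read count (vertical axis, linear, from 0) of each of the 4 genes in the 20 kidneys by group. Points are mice and bars are the mean ± SD (n = 5). Old G3 Tert-/- kidneys sit lowest in each panel, with all 5 below the other 15 for Sec14l3 and Cntnap5a.

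All 4 genes did not overlap between the genotypes at 47 weeks and were lower in G3 Tert-/-, as were 1.44% of all tested genes. That count follows from how the genes were chosen. For 2 of the 4, Sec14l3 and Cntnap5a, every old G3 Tert-/- library was below all 15 other libraries, against 0.267% of tested genes (39). This count too depends on the choice, which used the old G3 Tert-/- libraries, so the share is no measure of enrichment. For Lipo3 and Pzp, 4 of the 5 old G3 Tert-/- libraries were below all others. The exception for Lipo3 was replicate 3 (103, against 101 in G3 Tert-/- young replicate 3), and for Pzp replicate 2 (316, level to the printed digits with G3 Tert-/- young replicate 2). The age comparison in G3 Tert-/- kidneys shares the old G3 Tert-/- libraries with the genotype comparison. There, Sec14l3 and Cntnap5a were lower without overlap, as were 2.66% of tested genes. With age in Tert+/+ kidneys 0 of the 4 genes were free of overlap, against 2.53% of tested genes in either direction.

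The lowest old Tert+/+ value of each gene came from the same library, replicate 3, with 137 for Lipo3, 98.3 for Sec14l3, 370 for Pzp and 5.84 for Cntnap5a. No such agreement held in old G3 Tert-/- kidneys. There the lowest library was replicate 5 for Lipo3, replicate 1 for Sec14l3 and Cntnap5a, and replicate 4 for Pzp. This was noticed after the values were seen. Replicate 3 lay at -2.9 on the first principal component, inside the range of the other libraries.

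At 7 weeks none of the 4 genes passed the test of genotype (limma, adjusted over 14630 genes), and neither did any other gene: 0% were called, with 1559 at an unadjusted p under 0.05. edgeR on the recovered reads also called 0 genes, and DESeq2 called 13. For Lipo3 the log2 fold change of G3 Tert-/- over Tert+/+ young was -0.18 (SE 0.15, 95% interval -0.48 to 0.13, limma adjusted p = 0.638). For Sec14l3 it was 0.14 (SE 0.22, interval -0.31 to 0.59, adjusted p = 0.817). For Pzp it was -0.07 (SE 0.18, interval -0.44 to 0.29, adjusted p = 0.888).

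Cntnap5a had the largest difference of the 4 in young kidneys, at -0.84 (SE 0.41, 95% interval -1.69 to 0.02, limma adjusted p = 0.475). Its edgeR and DESeq2 adjusted p-values were 0.449 and 0.413. In a limma fit of the 2 young groups alone, the adjusted p was 0.696 for Lipo3, 0.866 for Sec14l3, 0.897 for Pzp and 0.583 for Cntnap5a. 4 of the 5 young G3 Tert-/- libraries were below every young Tert+/+ library, and the exception was replicate 4 at 13.3. The scaled reads were 1.83-fold lower (95% counting interval 1.28 to 2.65). That interval pools the reads of each group and leaves out differences between mice, which the limma interval above includes. At 7 weeks 0 of the 4 genes were lower in G3 Tert-/- without overlap, against 0.8% of tested genes.

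The genotype difference at 47 weeks minus that at 7 weeks was -0.86 (SE 0.21) for Lipo3, -1.44 (SE 0.31) for Sec14l3, -0.88 (SE 0.25) for Pzp and -1.67 (SE 0.59) for Cntnap5a, on the log2 scale. Over all tested genes the median of this change was 0. These values share the 47-week libraries that chose the genes, so they carry no test. Of both libraries that stood apart, only Tert+/+ old replicate 4 enters the genotype difference at 47 weeks. Without it the differences were -1.01, -1.29, -1 and -2.33 for Lipo3, Sec14l3, Pzp and Cntnap5a. With it they were -1.04, -1.30, -0.95 and -2.50.

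**Figure D2:**
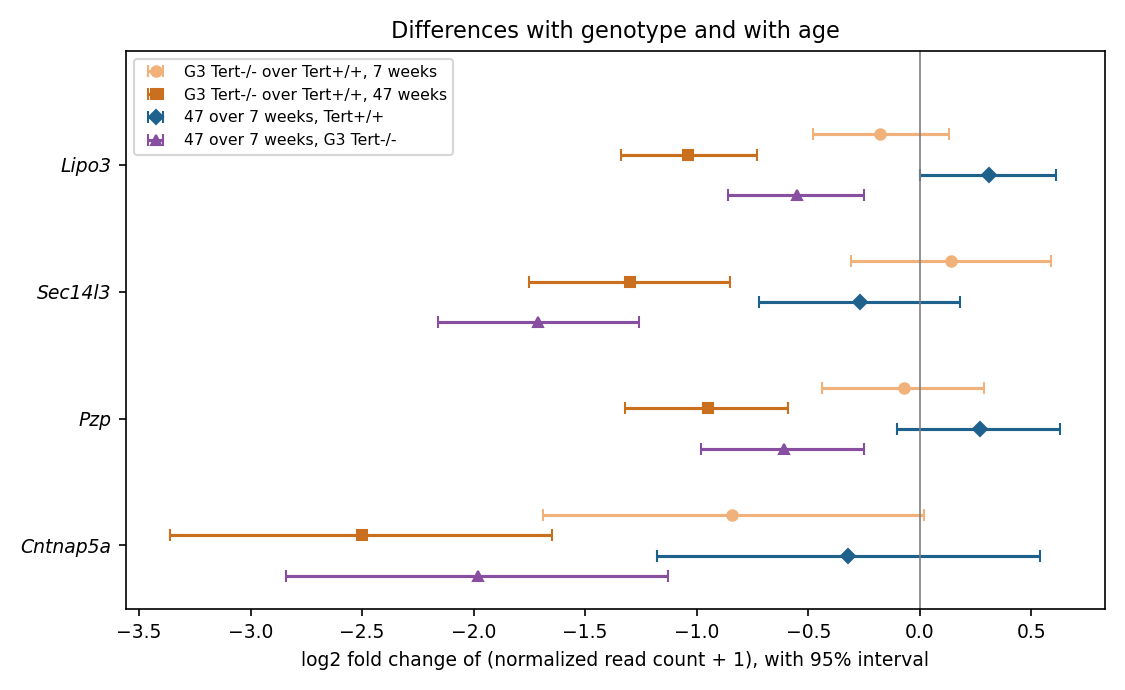
Log2 fold change of the normalized count plus 1 (horizontal axis) with 95% intervals from the limma model, for the genotype differences at 7 and 47 weeks and the age differences in each genotype. The genotype intervals of young kidneys include 0 for each gene, and those of old kidneys lie below 0, as the choice of genes implies.

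**Figure D3:**
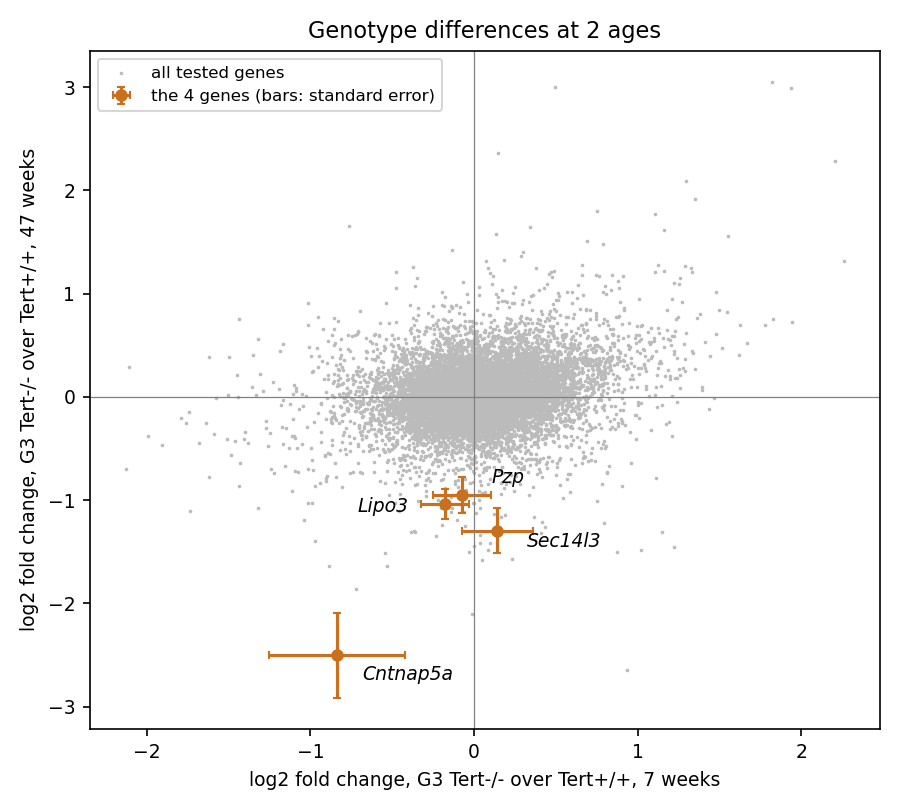
Log2 fold change of G3 Tert-/- over Tert+/+ at 7 weeks (horizontal axis) and at 47 weeks (vertical axis) for the 14630 tested genes in grey and the 4 genes in orange, with standard errors. Lipo3, Sec14l3 and Pzp lie near 0 on the horizontal axis, and Cntnap5a lies at -0.84.

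Within groups, none of the 6 pairs of these genes passed the test of a relation between mice. After subtracting group means, Pearson's r over the 20 libraries was 0.41 for Pzp and Cntnap5a (permutation within groups, two-sided p = 0.126, adjusted over 6 pairs p = 0.378), with Spearman's rho 0.41 (permutation p = 0.0996). For Sec14l3 and Cntnap5a r was 0.35 (permutation p = 0.125, adjusted p = 0.378), while rho was 0.53 (permutation p = 0.0369, or 0.222 adjusted over the 6 pairs). Lipo3 and Cntnap5a had an r of 0.30 and a rho of 0.36 (permutation p = 0.359 and 0.186). Lipo3 and Pzp had 0.27 and 0.38 (permutation p = 0.320 and 0.128). Sec14l3 and Pzp had 0.21 and 0.20 (permutation p = 0.396 and 0.417), and Lipo3 and Sec14l3 had 0.02 and 0.16 (permutation p = 0.947 and 0.536). The adjusted p of r was 0.476 for each of the pairs Lipo3 with Cntnap5a, Lipo3 with Pzp and Sec14l3 with Pzp, and 0.947 for the last. Without the 2 libraries farthest from the median of the first gene, r was 0.28, 0.59, 0.47, 0.38, 0.42 and 0.16 in the order of the pairs above.

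The genes whose levels followed each member most closely over all 20 libraries differed between members. These correlations include the group differences that chose the members, and all points share the libraries' scaling. Sec14l3 was followed most closely by Cryaa, a small heat shock protein of the lens (r = 0.94), the organic anion transporter Slco1a1 (0.91), the acyl-CoA synthetase Acsm3 (0.90), the organic anion transporter Slc22a7 (0.89) and the motor protein Myo5a (0.89). Cntnap5a was followed by Vps8 (0.90), Slco1a1 (0.89), Nploc4 (0.87), the translation initiation factor Eif5 (0.86) and Acsm2 (0.84). For Pzp the 5 were Hoxb3os (0.79), Lipo3 (0.77), Cntnap5a (0.77), Slco1a1 (0.76) and Fbxl2 (0.76). For Lipo3 they were Cluap1 (0.83), 5730414N17Rik (0.78), Cntnap5a (0.78), Pzp (0.77) and Klhl25 (0.75).

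Slco1a1 is thus among the 5 for 3 of the 4 members. Its means were 1764 ± 514, 1723 ± 377, 1256 ± 244 and 304 ± 118 in Tert+/+ young, G3 Tert-/- young, Tert+/+ old and G3 Tert-/- old (SD, n = 5). Cryaa had means of 11.2, 11.1, 6.48 and 1.85 in the same order, lowest in old G3 Tert-/- kidneys like Sec14l3. Its counts in that group were 1.02 to 3.12, within counting error of 0, so its r with Sec14l3 rests partly on very few reads. Tert+/+ young replicate 5 had the highest Slco1a1 count of all 20 libraries (2337), the lowest Sec14l3 count of the 15 libraries outside old G3 Tert-/- (74.0), and a Cryaa count of 3.37, the lowest of its group.

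**Figure D4:**
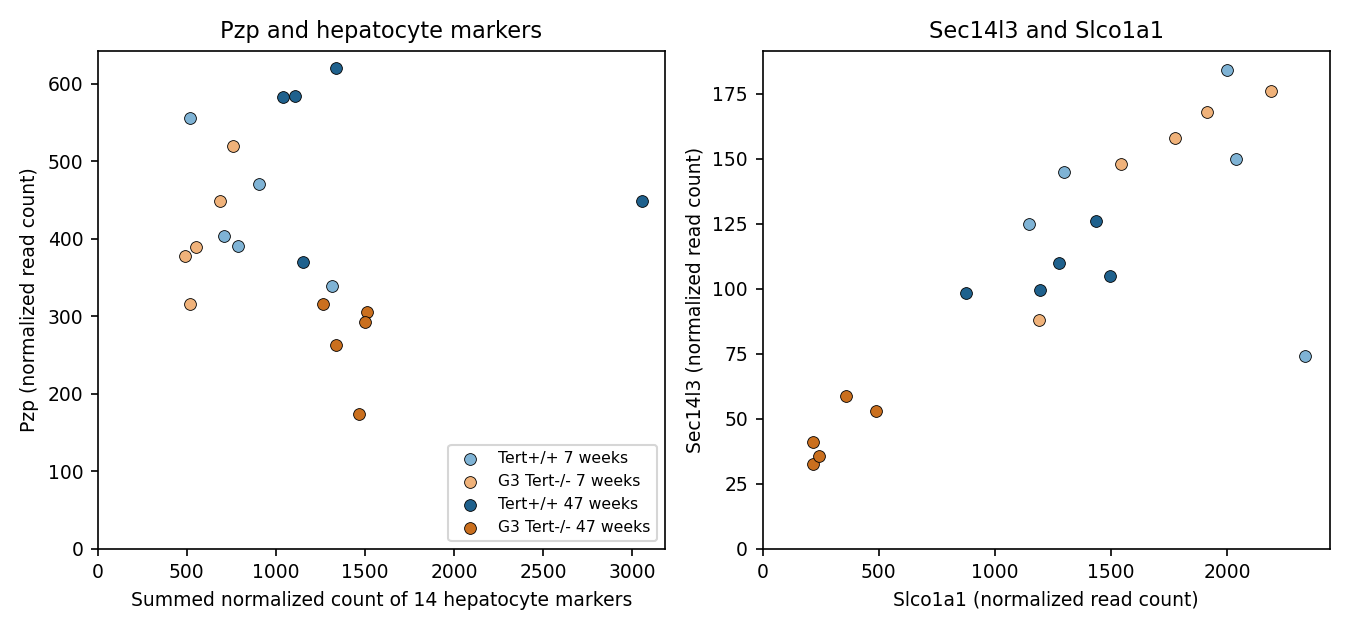
Left, the Pzp count against the summed count of 14 hepatocyte markers. Right, the Sec14l3 count against the Slco1a1 count, with 1 point per kidney and linear axes from 0. Old G3 Tert-/- kidneys have Pzp counts of 174 to 316 at hepatocyte sums of 1267 to 1509, and Tert+/+ young replicate 5 combines the highest Slco1a1 (2337) with a Sec14l3 of 74.0.

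After group means were subtracted, other genes led. For Sec14l3 they were BC067074 (r = 0.81), Cryaa (0.79), Vmn1r197 (0.79), Myo5a (0.78) and Fgd3 (0.78), so Cryaa and Myo5a stayed among its 5. For Pzp they were Hoxb3os (0.86), Gm26734 (0.81), Slc28a3 (0.80), Gk5 (0.79) and Mia2 (0.78), with Hoxb3os first by both measures. For Cntnap5a they were Dnph1 (0.85), Sema3f (0.83), Naa80 (0.81), Cript (0.80) and Igf2bp2 (0.79), and for Lipo3 AW822252 (0.78), Gm45495 (0.70), 2010203P06Rik (0.70), Ppfia1 (0.68) and Frmd4b (0.68). None of the 5 for Cntnap5a or Lipo3 was shared between the measures. Each of these genes was picked as the most alike among all tested genes, so the values carry no test.

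The relatives of each gene were taken from lists of its family. Of all tested genes 0% passed by genotype at 7 weeks and 0.0957% (14) at 47 weeks, so counts of 0 in lists this small are near that background. Of 9 other entries in the acid lipase list, 2 were in the table and Lipa alone was tested. Lipa, lysosomal acid lipase, was at 915 ± 184 in Tert+/+ old and 958 ± 164 in G3 Tert-/- old kidneys (log2 fold change 0.07, SE 0.15, limma adjusted p = 0.950). At 7 weeks its difference was 0.09 (adjusted p = 0.822). Lipo2, a close relative of Lipo3, had means of 5.95, 3.47, 9.47 and 3.30 in Tert+/+ young, G3 Tert-/- young, Tert+/+ old and G3 Tert-/- old, below the filter.

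In the list of SEC14-like and CRAL-TRIO carriers, 5 of 9 other entries were in the table and 4 were tested, with 0 called by genotype at either age. Their median log2 fold change was -0.06 at 47 weeks and 0.01 at 7 weeks, against 0.01 and 0 over all tested genes. Sec14l1 was at 306 ± 23.4 in Tert+/+ old and 328 ± 33.2 in G3 Tert-/- old kidneys (0.09). Sec14l2, a tocopherol-associated protein, was at 17.0 ± 3.22 and 10.9 ± 4.23 (-0.66, limma adjusted p = 0.819). The tocopherol transfer protein Ttpa and its relative Ttpal differed by -0.16 and 0.03.

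In the alpha-2-macroglobulin list, 7 of 12 other entries were in the table and 5 were tested, with 0 called by genotype. The median log2 fold change was -0.01 at 47 weeks and 0.46 at 7 weeks. The clearance receptor Lrp1 was level, with 168 ± 31.8 in Tert+/+ old and 167 ± 36.1 in G3 Tert-/- old kidneys (-0.02). Its chaperone Lrpap1 was at 2308 ± 238 and 1862 ± 147 (-0.31, SE 0.09, limma adjusted p = 0.436). Complement C3, a structural relative, differed by 0.59 and C4b by 0.31, both higher in G3 Tert-/- without passing. C4b passed with age in both genotypes, with log2 fold changes of 1.82 in Tert+/+ and 1.42 in G3 Tert-/- kidneys (limma adjusted p = 0.00213 and 0.0112). The age calls of this list (1 of 5 in each genotype) stand beside 0.649% of tested genes called in Tert+/+ and 2.24% in G3 Tert-/- kidneys.

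Of 15 other contactin, contactin-associated and neurexin entries, 9 were in the table and 5 were tested, again with 0 called by genotype. The median was 0.34 at 47 weeks and -0.07 at 7 weeks. Cntnap2 was at 7.09 ± 5.03 in Tert+/+ old and 10.7 ± 1.86 in G3 Tert-/- old kidneys (0.70, SE 0.36, limma adjusted p = 0.773), the opposite sign to Cntnap5a. The neurexins Nrxn2 and Nrxn3 differed by 0.34 and -0.27, and Cntn2 by 0.19. At 47 weeks 4 of the 5 tested relatives had a log2 fold change above 0, beside 7616 of all 14630 tested genes.

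Slco1a1 and Acsm3 belong to a list of genes known to be higher in male than in female mouse kidney. This list was written with its results in these data known, and Slco1a1 and Acsm3 follow members chosen at 47 weeks, so its 47-week counts are a description. All 16 listed male-biased genes were tested. At 7 weeks 0 passed, and the median log2 fold change was -0.02. At 47 weeks all 16 were below 0 with a median of -0.35, beside 47.9% of all tested genes below 0, and 3 passed lower: Slco1a1 (-2.10), Acsm3 (-1.12) and Nudt19 (-0.75), at limma adjusted p = 5.73e-05, 0.0145 and 0.0125. The share called lower over all tested genes was 0.082%. The 5 tested of 6 female-biased genes were all above 0 at 47 weeks, with a median of 1.04 and 0 called. How far the 4 members move with these lists was not tested.

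Pzp is chiefly a liver transcript, so hepatocyte markers were set beside it. 14 of 15 were in the table and 11 were tested, with 0 called by genotype at either age. Their summed normalized count was 517 to 1317 in Tert+/+ young, 490 to 759 in G3 Tert-/- young, 1042 to 3056 in Tert+/+ old and 1267 to 1509 in G3 Tert-/- old kidneys. The markers did not all differ the same way between the old groups. Apob, the largest part of the sum, was at 699 ± 164 in Tert+/+ old and 810 ± 174 in G3 Tert-/- old kidneys, and Serpina1a at 226 ± 68.2 and 251 ± 43.9. Apoa1 was at 57.9 ± 113 and 5.35 ± 1.66, and Apoa2 at 59.7 ± 72.0 and 23.3 ± 5.83. These old Tert+/+ means rest largely on replicate 4, at 260 for Apoa1 and 188 for Apoa2. No other library of the study was above 25.4 and 42.1. The part of liver transcripts in the Pzp difference was not tested. Mup20 was at 0 in 5 of 5 old G3 Tert-/- and 3 of 5 old Tert+/+ libraries, and Ahsg in 4 of 5 and 3 of 5.

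Tert+/+ old replicate 4 was the exception. It held 462 counts of Alb, 124 of Ahsg, 68.7 of Hpx and 86.7 of Mup20, against at most 89.8, 7.82, 10.8 and 9.24 in the other 19 libraries. Its Pzp was 449, the second lowest of its group. Its Cntnap5a, 21.4, was the highest of its group.

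Markers of the other cell types in which these families are best known overlapped between the old groups. Multiciliated cell markers (5 of 8 in the table, Foxj1 not among them) summed to 43.5 to 63.1 in Tert+/+ old and 41.4 to 70.5 in G3 Tert-/- old kidneys. Neuron and Schwann cell markers (6 of 11) summed to 85.7 to 120 and 81.7 to 124. Proximal tubule markers (8 of 8) summed to 44822 to 53544 and 42787 to 49072, and none passed by genotype at 47 weeks. Slc34a1 was the largest part of the sum, at 23566 ± 3000 and 21817 ± 1838. At 47 weeks 7 of the 8 had a log2 fold change below 0 (median -0.1), beside 47.9% of all tested genes. The proximal tubule marker with the smallest adjusted p was Slc22a7 (-1.34, limma adjusted p = 0.167). Markers of other kidney segments (6 of 6) summed to 23494 to 29035 and 22782 to 33489. The part of cell makeup in the 4 differences was not tested.

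In Tert+/+ young replicate 5 the adrenal cortex marker Star was at 460, against at most 20.8 elsewhere. Of 5 listed adrenal cortex markers, Star was the only 1 in the table. Adipocyte markers of this library summed to 3451, against at most 1089 in the rest of its group. That library also had the lowest Sec14l3 (74.0) and the highest Pzp (556) and Lipo3 (146) of its group. Without it, the 7-week log2 fold change was -0.06 for Sec14l3 and 0.02 for Pzp, each on the other side of 0 and neither near passing. The highest adipocyte sum of all libraries, 9379, was in G3 Tert-/- young replicate 3, which also had the lowest value on the first principal component (-39.4) and the lowest young Cntnap5a (4.71). Without it the 7-week log2 fold change of Cntnap5a was -0.65. Whether these libraries held adrenal or fat tissue was not tested, nor was its part in the values.

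The genes of the table nearest to each member on the chromosome were listed with their values. The 5 nearest genes of the table on each side gave 10 neighbours per member, of which 8 were tested around Lipo3, 9 around Sec14l3, 4 around Pzp and 6 around Cntnap5a. 0 of these passed by genotype at 7 or 47 weeks, where 0% and 0.0957% of all tested genes did, so the count says nothing particular about neighbours. Their log2 fold changes at 47 weeks ran from -0.84 to 0.36 around Lipo3, -0.66 to 0.47 around Sec14l3, -0.16 to 0.47 around Pzp and -0.45 to 0.13 around Cntnap5a. At 7 weeks they ran from -0.07 to 0.60, -0.83 to 0.60, -0.30 to 0.52 and -1.17 to 0.04 in the same order. The lowest of these was 2900060B14Rik, 1870 kb from Cntnap5a (-1.17, limma adjusted p = 0.351). It was at 527 ± 115 in Tert+/+ young and 257 ± 124 in G3 Tert-/- young kidneys, and was singled out after its values were seen. Around Cntnap5a even the nearest genes of the table, Tsn and Dsel, lay 1710 and 3820 kb away. At 47 weeks, the nearest tested genes were Rnls (0.02) and Stambpl1 (-0.84) for Lipo3, Gal3st1 (0.47) and Mtfp1 (0.18) for Sec14l3, Fkbp4 (-0.08) and Clec2h (-0.16) for Pzp, and Dsel (-0.08) and Tsn (-0.07) for Cntnap5a.

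Counting could mix some of these genes with others. In the last 300 bases of the annotated transcripts of Lipo3, 18 of 258 stretches of 50 bases (6.98%) also occur in Lipo2 or Lipo4, and Lipo2 lies within the GENCODE span of Lipo3 on the same strand without sharing an exon. How reads were divided between them was not tested. For Sec14l3, Pzp and Cntnap5a no such stretch occurs in another gene. Gm10069 is antisense to Pzp and overlaps 3 of its exons, at a mean of 2.84, and the labels' protocol names strand-specific counting.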

How the data were processed

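RNA from male mouse kidneys was made into 20 libraries by priming on poly(A) tails (QuantSeq, sense strand), starting from 300 ng of total RNA, per the labels' protocols. RNA quality scores averaged 6.6 (5.0 to 7.5), and scores of single libraries are not stated. The deposited signal is a normalized read count: the authors' values are gene reads over a size factor of the library, as read from the table's name and values. 100% of the values in each library were whole multiples of 1 step (relative tolerance 1e-06), so reads could be recovered. The submitters' processing notes name HTSeq 0.6.1, TopHat2 2.0.10 and DESeq2 without roles, on GRCm38. All per-sample columns were used.

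A limma 3.58.1 model (R 4.3.3) with an intensity trend and 4 group means was fitted to log2(normalized count + 1), two-sided, with Benjamini-Hochberg adjustment over 14630 genes and a threshold of 0.05. edgeR 4.0.16 and DESeq2 1.42.0 on recovered reads were alternatives. On the reads they called 0 and 13 genes by genotype at 7 weeks and 15 and 52 at 47 weeks. On simulated data for the comparison at 7 weeks, the limma fit recovered 23.9% of 67 genes changed 1.5-fold, 85.1% of 67 changed 2-fold and 97% of 66 changed 4-fold. The changed genes were drawn from those with a mean normalized count of 20 or more. All of them were changed in the same simulated data, which eases the adjusted threshold, while the real comparison called 0 genes. Counts were drawn gene by gene, so no simulated library stood apart as a whole. These shares are thus not the chance of finding a single changed gene in the real data. The mean of Cntnap5a over the libraries was 10.4, so these shares do not cover it. Replicates differed beyond counting error (chi-square per degree of freedom 3.59 to 86.57 over 40 pairs). The labels do not say that each library is a separate mouse, which is assumed here, so p-values measure the spread between these samples. Members, lists and motifs were chosen with earlier results of these data known. Named genes are the 4 members, list genes that passed by genotype and otherwise up to 4 with the highest mean, the 5 most alike genes, and the nearest tested neighbours. Values of single libraries for marker genes were named after they were seen. Coordinates are from GENCODE M21 on GRCm38, in which 99.3% of the genes matched 1 annotated gene. Counting intervals are exact at the 95% level.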

Additional observations from a re-analysis of the deposited data

How the results depend on the processing

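Of 647 values under other settings, 632 were labelled as kept. Tested values had to keep their direction and their side of the threshold, and untested ones to move by less than the spread. Numbers of genes called had to stay within a set ratio. The total includes fits without a library outside the 2 groups compared, whose log2 fold change cannot move, so 632 is not a measure of stability. 3 changed sign, all near 0 at 7 weeks: Sec14l3 at -0.06 without Tert+/+ young replicate 5, and Pzp at 0.02 without that library and at 0.02 without G3 Tert-/- young replicate 2. With 1 library left out at a time, the 7-week log2 fold changes ranged from -0.25 to -0.12 for Lipo3, -0.06 to 0.32 for Sec14l3, -0.16 to 0.02 for Pzp and -0.98 to -0.65 for Cntnap5a. At 47 weeks they ranged from -1.12 to -0.91, -1.41 to -1.20, -1.07 to -0.80 and -2.77 to -2.18. For Cntnap5a a pseudocount of 5 gave -1.43 at 47 weeks, -1.04 with age in G3 Tert-/- kidneys and -0.81 for the change between ages (-2.50, -1.98 and -1.67 with 1), since a larger constant shrinks low genes. A minimum of 20 normalized counts removed Cntnap5a, so it gave no value there.

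The number of genes called at 7 weeks was 0, with 13 by DESeq2 and 0 to 2 when 1 library was left out (2 without Tert+/+ young replicate 2). At 47 weeks it was 14, with 52 by DESeq2, 6 with only the 2 groups compared, and 2 to 19 when 1 library was left out. It was 2 without G3 Tert-/- old replicate 2 or replicate 4, 8 without its replicate 1, 4 without Tert+/+ old replicate 1 and 7 without its replicate 5. The cause was not tested. TMM scaling moved the median of all genes by at most 0.0026. No paired analysis was possible because the labels give no replicate numbers and nothing links mice of different groups. Depth limits Cntnap5a most, with 9 reads in old G3 Tert-/- kidneys.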
